A study of Mus musculus with 48 samples.

Results

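The genes followed here, 10 of the 55450 counted, belong to the machinery that detects DNA and RNA inside the cell. They were taken by name: the RNA helicases Ddx58 (RIG-I), Ifih1 (MDA5) and Dhx58 (LGP2), their adaptor Mavs, the DNA-pathway adaptor Tmem173 (STING), the kinase Tbk1, the left-handed nucleic acid sensor Zbp1, the inflammasome DNA sensor Aim2, the endosomal RNA receptor Tlr3 and the exonuclease Trex1. Counts were recorded for 9 of them in every tumor, and these 9 passed the filter on low counts in both experiments. Trex1 had 0 counts in all 48 libraries and could not be tested.

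B16-D5 melanoma cells had been injected under the skin of the flank of C57BL/6J wild-type (WT) or iNOS knockout (KO) mice 8 days before therapy, and bulk RNA of individual tumors was sequenced, 3 tumors in each of 16 conditions. Mice were obtained at 4 weeks of age, housed for 2 weeks, and left untreated or given 250 µg of anti-PD-1, an antibody that blocks the T cell checkpoint receptor PD-1, or of control IgG on days 0 and 3. Tumors taken at 6 hours and day 1 came before the dose of day 3, and whether those of day 3 did is not stated. The first experiment had 30 tumors of WT mice, untreated at 0 hours, or untreated, IgG-treated or anti-PD-1-treated at 6 hours, day 1 and day 3. The second had 18 tumors, untreated, IgG-treated or anti-PD-1-treated in WT and iNOS KO mice, collected at day 7. The knockout is of the host: all tumors grew from the same injected melanoma line, so that in iNOS KO mice the cancer cells still carried Nos2. Levels are CPM, the share of the counts of a library on a fixed scale, with library sizes set by the trimmed mean of M values (TMM) within each experiment, a fold change is given on the log2 scale with its standard error, and levels were not tested between experiments.

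Libraries held 25574203 to 47687872 counts in the first experiment and 11625862 to 40959309 in the second. In the second experiment, 3 libraries stood apart by their counts on sensory receptor genes (of smell, pheromone sensing and taste), which a tumor is not known to use: WT anti-PD-1 tumors 3 and 4 and untreated iNOS KO tumor 1 had 1013 to 4089 CPM on these genes, against 13.9 to 366 CPM in the other 45 libraries. Nos2, which encodes iNOS, was at 1.15 to 5.92 CPM in tumors labelled iNOS KO. In WT tumors of the same experiment Nos2 was at 1.4 to 7.28 CPM, so that the whole-gene count did not check the genotype labels. These labels come from the sample titles, and a separate genotype entry lists the iNOS KO tumors as WT too. Melanocyte lineage markers (Pmel, Mlana, Tyr, Tyrp1, Dct and Sox10) summed to 8893 to 19115 CPM in every tumor, which matched the labelled melanoma. Leukocyte markers summed to 124 to 939 CPM.

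RIG-I and MDA5 bind double-stranded or unusual RNA in the cytosol and signal through MAVS on mitochondria, and LGP2 tunes both. cGAS makes a cyclic dinucleotide from cytosolic DNA that activates STING. Both routes meet at the kinase TBK1, which activates the transcription factor IRF3 and so type I interferon, and interferon in turn raises the transcription of several of the sensors. AIM2 instead assembles an inflammasome on DNA, ZBP1 can start necroptosis, TLR3 reads double-stranded RNA in endosomes, and TREX1 degrades cytosolic DNA before it is sensed.

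The stretches of 120 bases before the RefSeq start of 5 of these genes are shown because Ddx58, Ifih1 and Tlr3 varied together between tumors of both experiments while Mavs and Tbk1 had the smallest spread of the 9 counted genes in the first. They are RefSeq sequences of GRCm38.p6 on the strand of each gene, from chr4:40239826-40239945 for Ddx58, chr2:62646256-62646375 for Ifih1, chr8:45410381-45410500 for Tlr3, chr2:131233943-131234062 for Mavs and chr10:121586795-121586914 for Tbk1. Capitals mark AANNGAAA, the core that interferon regulatory factors bind, in Ddx58 and Tlr3, and the shorter repeat GAAANNGAA in Ifih1, on either strand. The stretch of Ifih1 holds no AANNGAAA, so a different motif is marked there. Since the motif marked was not the same in all, the marks make no comparison of the 5 genes.
Ddx58: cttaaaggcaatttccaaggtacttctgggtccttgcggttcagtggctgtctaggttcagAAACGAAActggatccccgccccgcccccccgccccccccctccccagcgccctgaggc
Ifih1: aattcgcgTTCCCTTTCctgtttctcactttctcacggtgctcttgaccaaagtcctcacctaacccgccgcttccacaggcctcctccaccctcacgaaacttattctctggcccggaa
Tlr3: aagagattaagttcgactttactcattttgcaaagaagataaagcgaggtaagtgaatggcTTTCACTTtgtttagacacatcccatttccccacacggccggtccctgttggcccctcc
Mavs: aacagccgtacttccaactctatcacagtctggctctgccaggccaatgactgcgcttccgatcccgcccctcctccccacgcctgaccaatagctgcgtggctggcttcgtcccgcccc
Tbk1: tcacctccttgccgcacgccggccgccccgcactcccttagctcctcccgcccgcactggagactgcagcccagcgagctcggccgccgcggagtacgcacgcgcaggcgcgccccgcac

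RefSeq promoters, 250 bases before to 50 after the start, were found for 7 of the 10 genes: Ddx58, Ifih1, Mavs, Tbk1, Aim2, Tlr3 and Trex1. The interferon-stimulated response element core, GAAA repeated after any 2 bases, searched on both strands, was present in Ddx58, from base 3 after the start, and in Ifih1, from base 33 after it, and was not in the windows of the other 5. Of all 32851 promoters in the table, 3.44% held it. The overlapping core AANNGAAA was present in Ddx58, Ifih1 and Tlr3 and in 23.9% of all promoters, and GAAANNGAA was present in Ddx58 and Ifih1 and in 8.56%. The core AANNGAAA was chosen after the sequences had been seen, and a match describes letters, not binding. The full core stands in capitals in the following stretches, chr4:40239807-40239830 for Ddx58, where it reads on the opposite strand, and chr2:62646207-62646230 for Ifih1.
Ddx58: gaggcagTTTCGATTTCctatggc
Ifih1: gagaatcGAAACAGAAAccgatct

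Per kilobase of exon, on which scale genes can be compared, 8 of the 9 counted genes lay within a narrow band and Aim2 lay far below it. Over the 48 tumors the median level was 11 CPM per kb for Tbk1, 10 for Ddx58, 9.24 for Zbp1, 8.96 for Mavs, 7.56 for Tmem173, 7.5 for Ifih1, 6.57 for Dhx58, 5.67 for Tlr3 and 1.11 for Aim2. Neighbours in this order often changed places: Tbk1 was above Ddx58 in 29 of 48 tumors, Ddx58 above Zbp1 in 27, Zbp1 above Mavs in 25 and Tmem173 above Ifih1 in 23. Mavs was above Tmem173 in 33 tumors, Ifih1 above Dhx58 in 34 and Dhx58 above Tlr3 in 35. Tlr3 was above Aim2 in all 48. Levels of single genes depend on the annotated exon length, and isoforms were not resolved.

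**Figure D1:**
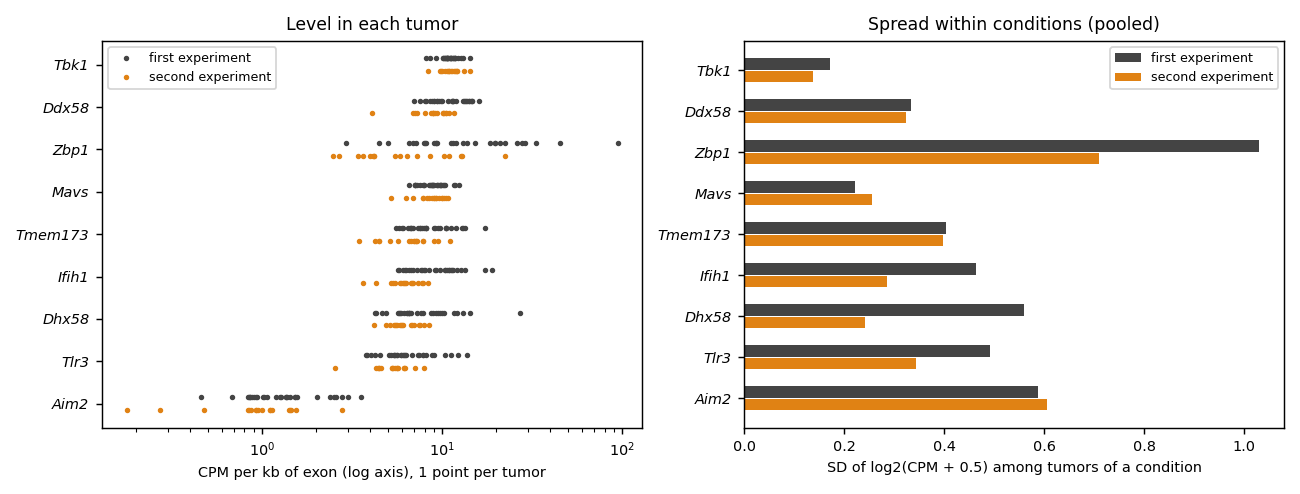
Left, CPM per kb of exon (log axis) of 9 genes, 1 point per tumor, 30 tumors of the first experiment and 18 of the second; right, SD of log2(CPM + 0.5) among tumors of a condition, pooled over conditions. Aim2 lies to the left of all other genes, and the bars of Zbp1 (1.03 and 0.71) are the longest while those of Tbk1 (0.17 and 0.14) are the shortest.

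How much the genes varied between tumors of the same condition set them apart more than their level. The pooled SD of log2(CPM + 0.5) within conditions was 1.03 for Zbp1 in the first experiment, more than in 96.3% of the 15110 genes with at least 1 CPM on average, and 0.71 in the second, more than in 89.7% of 15899. Aim2 followed with 0.59 and 0.60, Dhx58 with 0.56 and 0.24, Tlr3 with 0.49 and 0.34, Ifih1 with 0.46 and 0.28, Tmem173 with 0.40 and 0.40, and Ddx58 with 0.33 and 0.32. Mavs had an SD of 0.22 and 0.26. Tbk1 was the steadiest, with 0.17 and 0.14, and only 8.23% and 1.94% of those genes had a smaller SD. The median over all of these genes was 0.33 in the first experiment and 0.29 in the second.

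Of the RIG-I-like helicases, Ddx58 (ENSMUSG00000040296.15, chr4:40203773-40239828, minus strand) had the highest median over all tumors, although Ifih1 had the higher mean CPM with anti-PD-1 at 6 hours and with IgG at day 1. Its mean stayed between 51.4 and 89.4 CPM in all conditions. In untreated WT tumors it was 66.2 ± 14.3 CPM (SD, n = 3) at 0 hours, 58.9 ± 2.87 at 6 hours, 80.9 ± 17.8 at day 1 and 82.4 ± 16.9 at day 3. With IgG it was 85.1 ± 30.9, 83.5 ± 20.1 and 74.9 ± 8.35 CPM at 6 hours, day 1 and day 3, and with anti-PD-1 86.7 ± 24.1, 89.4 ± 19.1 and 87.6 ± 10.2. The untreated tumors at 6 hours were the tightest and lowest group of that series. At day 7 the untreated, IgG and anti-PD-1 means were 75.8 ± 5.37, 69.9 ± 6.03 and 51.4 ± 24 CPM in WT and 61.3 ± 9.74, 61.6 ± 4.31 and 59.5 ± 8.66 in iNOS KO mice. The wide SD of the WT anti-PD-1 group came with tumors 3 and 4, at 28.8 and 48.8 CPM against 76.6 in tumor 2.

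Ifih1 (ENSMUSG00000026896.14, chr2:62595798-62646255, minus strand), the sensor of long double-stranded RNA, ranged more widely. Untreated WT tumors held 64.8 ± 11.1, 54.5 ± 6.76, 68.7 ± 19.2 and 80.3 ± 22.6 CPM at 0 hours, 6 hours, day 1 and day 3. IgG-treated tumors held 80.5 ± 31.4, 103 ± 45.6 and 71.0 ± 10.7 CPM at the 3 later times, and anti-PD-1-treated tumors 96.6 ± 43.1, 78.2 ± 27.2 and 85.8 ± 20.8. Day 7 levels, in the order untreated, IgG and anti-PD-1, were 53.7 ± 5.78, 55.7 ± 7.40 and 45.4 ± 17.2 CPM in WT and 57.5 ± 9.58, 50.8 ± 6.07 and 42.1 ± 6.29 in iNOS KO mice. Its highest single tumor was WT IgG tumor 4 at day 1, with 155 CPM, and its lowest was WT anti-PD-1 tumor 3 of day 7, with 29.8.

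Dhx58, which has no caspase recruitment domains of its own (ENSMUSG00000017830.15, chr11:100694884-100704271, minus strand), was the least abundant of the 3 helicases. Its means were 20.7 ± 1.37, 16.7 ± 3.71, 23.7 ± 5.76 and 23.2 ± 7.95 CPM in untreated WT tumors at the 4 times. They were 26 ± 12, 46.1 ± 37.2 and 26.5 ± 6.48 CPM with IgG and 29.9 ± 14.9, 33.3 ± 8.05 and 30.8 ± 9.97 with anti-PD-1. WT IgG tumor 4 of day 1 reached 88.5 CPM, and the others of its group 31.2 and 18.7. At day 7 the untreated, IgG and anti-PD-1 means were 19.1 ± 3.03, 21 ± 4.28 and 18.4 ± 5.57 CPM in WT and 25 ± 2.40, 19.9 ± 2.24 and 18.7 ± 0.887 in iNOS KO tumors. Its exons share 141 bases, 4.31% of their length, with the antisense gene Dhx58os, which had a median of 0.275 CPM.

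Mavs (ENSMUSG00000037523.13, chr2:131234063-131248025, plus strand), the adaptor below RIG-I and MDA5, stayed between 24.6 and 34.4 CPM on average in every condition. It was 32.7 ± 7.86, 29 ± 3.40, 30 ± 3.53 and 31.8 ± 7.73 CPM in untreated WT tumors, 27.4 ± 4.96, 24.6 ± 1.34 and 34.4 ± 4.34 with IgG, and 28.9 ± 4.97, 31.7 ± 2.84 and 31.5 ± 2.13 with anti-PD-1. In the second experiment it was 30.7 ± 4.48, 26.4 ± 2.89 and 24.6 ± 6.44 CPM in untreated, IgG and anti-PD-1 WT tumors and 28.9 ± 7.66, 32.4 ± 1.99 and 32.6 ± 1.55 in iNOS KO tumors. The lowest values of that experiment, 17.5 and 21 CPM, were in WT anti-PD-1 tumor 3 and untreated iNOS KO tumor 1, both among the 3 libraries with high receptor counts.

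Tbk1 (ENSMUSG00000020115.3, chr10:121546455-121586787, minus strand), the kinase shared by the RNA and DNA routes, ran from 31.9 to 56.1 CPM over all tumors, a 1.76-fold range. Untreated WT tumors had 44.3 ± 1.88, 42.4 ± 2.30, 43 ± 0.980 and 40.8 ± 4.94 CPM at the 4 times. IgG gave 46.1 ± 8.62, 41.9 ± 8.74 and 41 ± 1.45 CPM and anti-PD-1 47.6 ± 2.48, 40.5 ± 7.61 and 42.9 ± 2.72. At day 7 the untreated, IgG and anti-PD-1 means were 44.9 ± 3.46, 49.5 ± 5.77 and 38 ± 5.07 CPM in WT and 45.3 ± 1.99, 45.3 ± 5.45 and 39.9 ± 2.31 in iNOS KO tumors.

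Zbp1 (ENSMUSG00000027514.14, chr2:173206612-173218923, minus strand) spanned a 37.9-fold range, from 8.77 CPM in iNOS KO anti-PD-1 tumor 2 to 333 CPM in WT IgG tumor 4 of day 1. Untreated WT tumors had 28.4, 40.4 and 48.5 CPM at 0 hours, 10.4, 15.8 and 42.1 at 6 hours, 24.4, 32.6 and 53.8 at day 1 and 33.1, 39.8 and 69.6 at day 3. With IgG the tumors had 17.7, 32.6 and 98.5 CPM at 6 hours, 46.2, 65.2 and 333 at day 1 and 28.8, 31.8 and 101 at day 3. With anti-PD-1 they had 28.1, 69.9 and 159, then 23.1, 73.9 and 92.4 and 25.4, 78.6 and 118 CPM. In every treated group of the first experiment the highest tumor was over 3 times the lowest, and the IgG and anti-PD-1 tumors overlapped at each time. At day 7, WT tumors had 9.42, 14.8 and 22.5 CPM untreated, 20.7, 36.1 and 45.6 with IgG and 12.9, 14.6 and 44.8 with anti-PD-1, and iNOS KO tumors had 19.5, 38.6 and 78.8, 14.8, 25.6 and 30.1 and 8.77, 12.1 and 14.1 in the same order.

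Aim2 (ENSMUSG00000037860.15, chr1:173350879-173466040, plus strand), known from myeloid and lymphoid cells, was counted 20 to 419 times per library. Its means were 3.56 ± 1.95, 4.25 ± 2.50, 3.88 ± 0.816 and 3.44 ± 0.678 CPM in untreated WT tumors at the 4 times, 5.04 ± 2.90, 9.17 ± 0.509 and 6.78 ± 4.92 with IgG and 4.77 ± 0.274, 6.27 ± 3.84 and 4.25 ± 1.24 with anti-PD-1. In WT tumors of day 7 it was 4.08 ± 0.862, 6.24 ± 3.23 and 4.50 ± 1.0 CPM in untreated, IgG and anti-PD-1 tumors, and in iNOS KO tumors 1.87 ± 1.03, 3.37 ± 0.498 and 2.52 ± 1.70. The IgG group of day 1 had the highest mean of all conditions, and its SD was the smallest of the IgG groups of the first experiment.

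Tlr3 (ENSMUSG00000031639.12, chr8:45395665-45411080, minus strand) had 31 ± 8.46, 28.7 ± 2.01, 27.6 ± 6.75 and 38.9 ± 9.33 CPM in untreated WT tumors, 38.8 ± 16.8, 36.1 ± 19.2 and 33.6 ± 4.63 with IgG and 49.0 ± 21.5, 30.1 ± 10.5 and 43.9 ± 17.3 with anti-PD-1. Day 7 means in untreated, IgG and anti-PD-1 tumors were 31.4 ± 4.74, 26.8 ± 3.15 and 22.5 ± 9.31 CPM in WT and 30.9 ± 9.35, 30 ± 2.03 and 26.1 ± 5.17 in iNOS KO mice. An antisense gene, Gm45542, covers 381 bases of its exons and had a median of 0 CPM. Tmem173 (ENSMUSG00000024349.10, chr18:35733679-35740554, minus strand) had 23.3 ± 6.51, 19.2 ± 0.843, 21.3 ± 4.32 and 22.1 ± 6.20 CPM in untreated WT tumors, 19.9 ± 5.45, 33.6 ± 12 and 26.5 ± 8.75 with IgG and 25.4 ± 8.99, 25.6 ± 9.20 and 28.4 ± 7.01 with anti-PD-1. For STING, the values of day 7 in the same order were 19.3 ± 0.293, 22.7 ± 6.81 and 13.8 ± 5.40 CPM in WT and 15.7 ± 5.15, 22.1 ± 5.62 and 17.4 ± 4.68 in iNOS KO tumors.

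**Figure D2:**
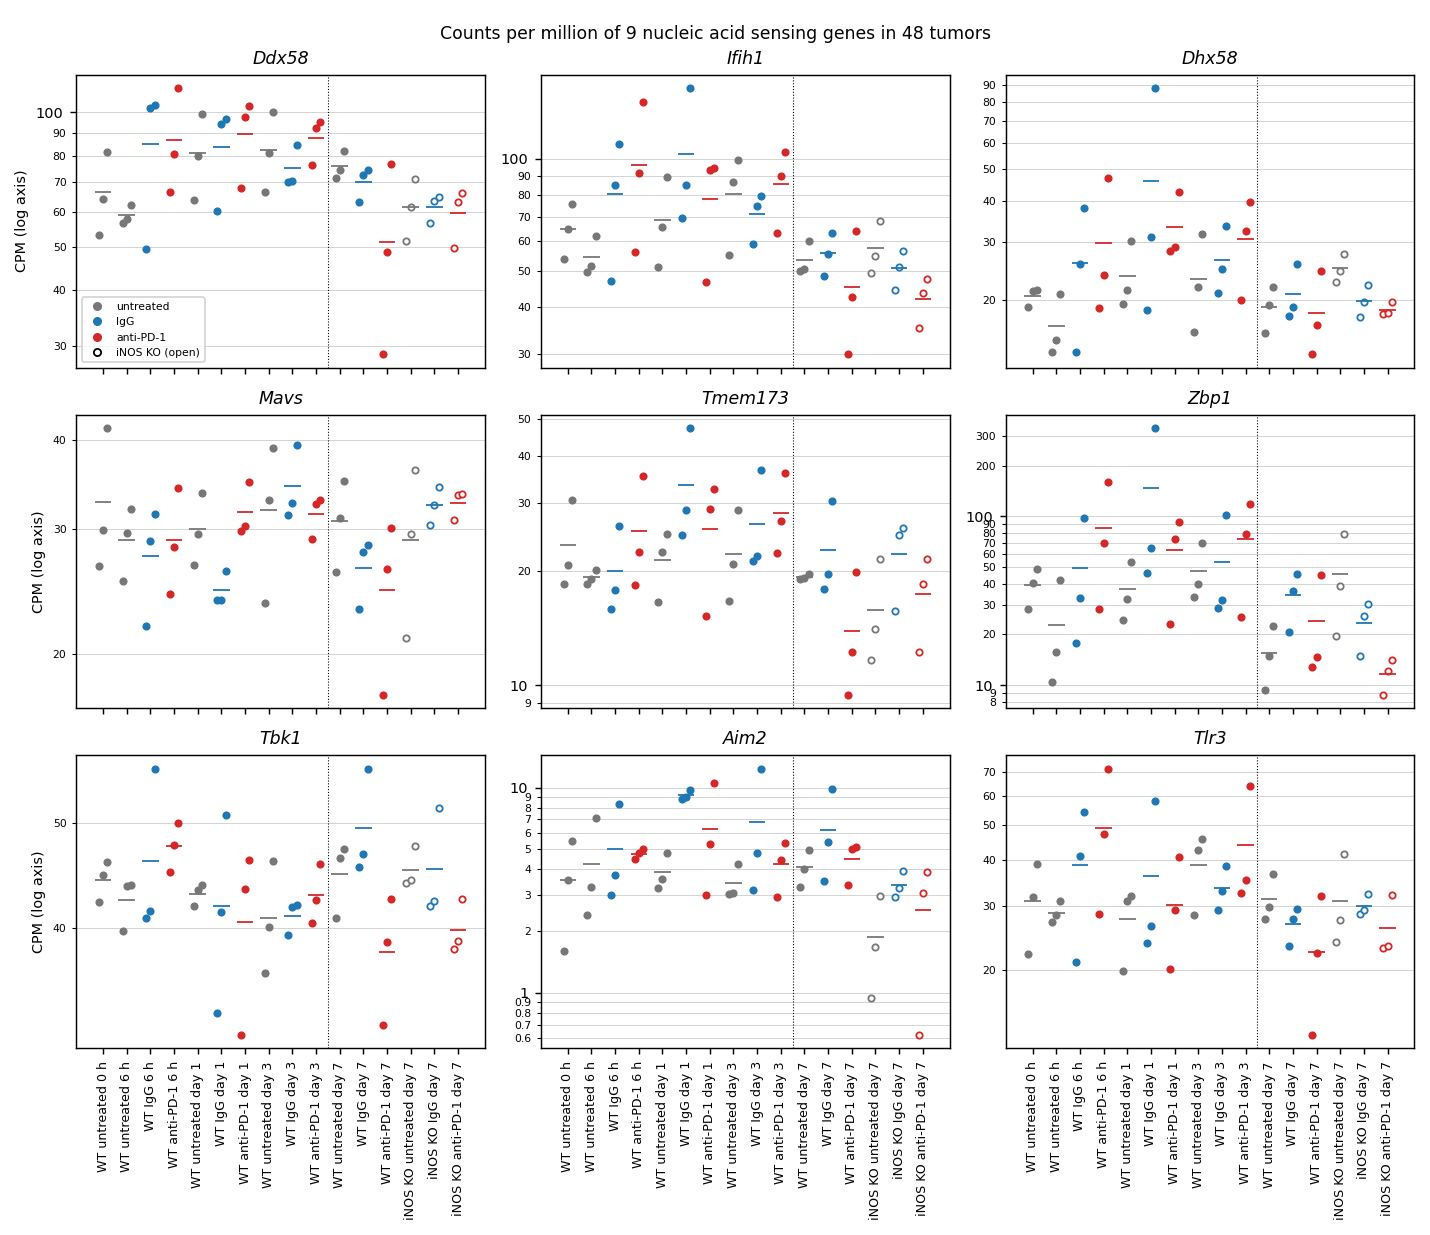
CPM (log axis) of the 9 counted genes in each of the 48 tumors, by condition; points are tumors in order of value, bars are group means, colors mark untreated, IgG and anti-PD-1, open points iNOS KO mice, and the dotted line separates the experiments. Points of one condition spread widely for Zbp1 (8.77 to 333 CPM over all tumors) and little for Tbk1 (31.9 to 56.1 CPM).

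Trex1 (ENSMUSG00000049734.9, chr9:109057933-109059734, minus strand) was listed at 0 in every library. All 1147 bases of its exons lie within exons of Atrip, a DNA damage checkpoint gene on the same strand, and Atrip had 6.66 to 14.7 CPM. Of 141 protein-coding genes whose exons are wholly shared with genes of the same strand, 107 (75.9%) were at 0 in all libraries. Of 35 whose exons are wholly shared with genes of the opposite strand only, 1 (2.86%) was at 0, and of 15395 that share no exon 372 (2.42%) were. The deposited table carries the name of another counting program than the one the submitters' notes list, so the rule by which reads of shared exons were assigned is not settled. In these counts a 0 for Trex1 therefore came with a class of genes that mostly lack counts, and its level in the tumors was not measured.

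**Figure D3:**
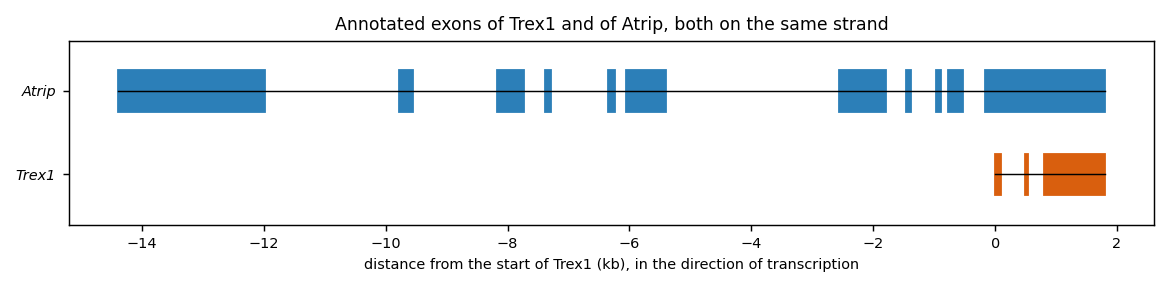
Annotated exons (boxes) of Trex1 and Atrip by distance from the start of Trex1 in kb, in the direction of transcription. The 3 exons of Trex1 lie inside the last exon of Atrip.

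Most of the sensors varied together between tumors. After the mean of each condition was subtracted, the 15 pairs among Ddx58, Ifih1, Dhx58, Tmem173, Zbp1 and Tlr3, a set chosen after the values were seen, had Pearson correlations of log2(CPM + 0.5) between 0.60 and 0.89 over the 30 tumors of the first experiment and between 0.36 and 0.88 over the 18 of the second. Ifih1 and Ddx58 were at 0.87 and 0.88, and Zbp1 and Dhx58 at 0.89 and 0.83. Tbk1 had correlations with the other genes of −0.15 to 0.64 and 0.19 to 0.63, and Aim2 of −0.47 to 0.55 and 0.00 to 0.63. Mavs stood apart in the first experiment, with −0.47 to 0.28, but reached 0.74 with Ddx58 and 0.73 with Tlr3 in the second, where those genes were all low in WT anti-PD-1 tumor 3. These points share libraries and their depth, and the correlations are a description.

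**Figure D4:**
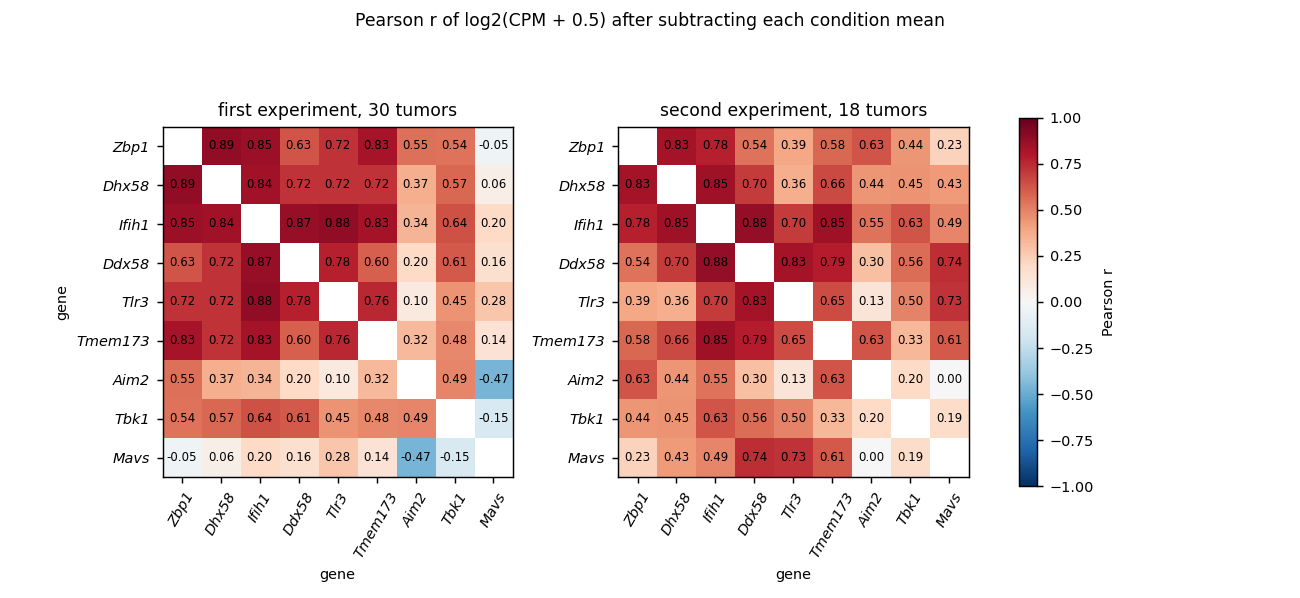
Pearson r of log2(CPM + 0.5) between each pair of the 9 counted genes after subtraction of the condition means, over 30 tumors of the first experiment (left) and 18 of the second (right). Dhx58, Ifih1 and Zbp1 show correlations of 0.78 to 0.89 with each other in both, and the row of Mavs is pale in the first.

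Zbp1 was tested against the 8 other counted genes across tumors of each experiment, 16 relations in all. In the first experiment Pearson's r was 0.90 with Dhx58 (Spearman's rho 0.80) and 0.88 with Ifih1 (rho 0.86), each with an adjusted permutation p of 5.3e-05 for r and for rho. In the second, r was 0.80 with Dhx58 (rho 0.78, adjusted permutation p = 0.00027 and 0.00055) and 0.74 with Ifih1 (rho 0.81, adjusted permutation p = 0.00055 and 0.00038). Without the 2 tumors farthest from the median of Zbp1, r was 0.85 with both in the first experiment, and 0.69 with Dhx58 and 0.65 with Ifih1 in the second. In the second experiment r was lower with Tmem173 (0.33, against 0.84 in the first), Ddx58 (0.30 against 0.67), Tlr3 (0.29 against 0.66) and Aim2 (0.32 against 0.59), with adjusted permutation p of 0.25, 0.28, 0.29 and 0.25, and whether these differ between experiments was not tested. Their rho was 0.81, 0.63, 0.58 and 0.68 for Tmem173, Ddx58, Tlr3 and Aim2 in the first experiment and 0.41, 0.33, 0.24 and 0.24 in the second. With Tbk1 r was 0.38 (rho 0.39) and 0.51 (rho 0.60), with adjusted permutation p of 0.059 and 0.053 for r and 0.053 and 0.018 for rho. Zbp1 and Mavs had r of −0.13 (rho −0.07) and −0.08 (rho −0.19), with adjusted permutation p of 0.53 and 0.76 for r. Within conditions, r was 0.89 and 0.83 for Dhx58 and 0.85 and 0.78 for Ifih1. By the same measure it was 0.83 and 0.58 for Tmem173, 0.63 and 0.54 for Ddx58, and 0.72 and 0.39 for Tlr3. It was 0.55 and 0.63 for Aim2, 0.54 and 0.44 for Tbk1 and −0.05 and 0.23 for Mavs. Raw p-values were 1e-05, the smallest the permutations could give, for Dhx58 and Ifih1 in the first experiment.

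The genes outside this set that followed each member most closely in both experiments, by the smaller of its correlations over 30 and over 18 tumors among 14795 genes, differed by member. For Ifih1 they were Rtp4 (r = 0.92 and 0.92), Parp9 (0.92 and 0.89) and Parp14 (0.89 and 0.89). For Dhx58 they were Stat2 (0.89 and 0.93), Rsad2 (0.88 and 0.88) and Parp14 (0.87 and 0.87), and for Zbp1 Gm4951 (0.94 and 0.90), Tap1 (0.92 and 0.90) and Casp12 (0.89 and 0.89). Many of these are textbook interferon-induced genes: Stat2 is a subunit of the interferon-activated transcription factor, Rsad2 encodes viperin and Tap1 encodes part of the transporter that supplies peptides for MHC class I. Ddx58 was closest to Ankfy1 (0.84 and 0.90), Rnf213 (0.82 and 0.86) and Samd9l (0.82 and 0.81), and Tlr3 to Zc3hav1 (0.90 and 0.85), the RNA-binding antiviral protein ZAP, Vcpip1 (0.84 and 0.84) and Fam49a (0.83 and 0.90). Tmem173 was closest to Samhd1 (0.82 and 0.84), a dNTP hydrolase of myeloid cells, Lgals3bp (0.80 and 0.86) and Sema4d (0.81 and 0.80). Aim2 was closest to Gm1966 (0.84 and 0.85), Elmo1 (0.83 and 0.84) and Pik3ap1 (0.82 and 0.79). Mavs was closest to C1qtnf6 (0.75 and 0.84), Ctc1 (0.74 and 0.79) and Pygo2 (0.74 and 0.75), and Tbk1 reached only 0.68 and 0.67 with Fam76b, 0.70 and 0.66 with Bbx and 0.64 and 0.64 with Gcnt1.

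In bulk tumors, fewer cells of a type and less RNA per cell cannot be told apart, so each gene was set beside summed marker levels, in 126 relations adjusted together, with p given for r unless rho is named. Tumors were permuted across all conditions of an experiment, so differences between conditions also enter r, rho and p. The r within conditions, with condition means subtracted, is therefore given as well. Aim2 went with the leukocyte markers (Ptprc, Cd53, Coro1a, Laptm5, Lcp1 and Cd52), with r = 0.82 (rho 0.81, adjusted permutation p = 0.00042) in the first experiment and r = 0.67 (rho 0.53, adjusted permutation p = 0.024 for r and 0.093 for rho) in the second, and against the melanocyte markers, with r = −0.67 (rho −0.66, adjusted permutation p = 0.0010) and −0.55 (rho −0.53, adjusted permutation p = 0.075). Without the 2 tumors farthest in the marker sum, the leukocyte r was 0.77 and 0.75 and the melanocyte r was −0.65 and −0.34. Mavs and Tlr3 showed the other sign with the melanocyte markers only. Their leukocyte r was −0.32 and 0.15 for Mavs (adjusted permutation p = 0.26 and 0.77) and 0.005 and 0.32 for Tlr3 (0.99 and 0.40). For the melanocyte markers, Mavs had r = 0.53 (rho 0.49, adjusted permutation p = 0.021) and 0.62 (rho 0.60, adjusted permutation p = 0.038 for r and 0.054 for rho), or 0.43 and 0.45 without the 2 farthest tumors. For Tlr3 it was r = 0.46 (rho 0.48, adjusted permutation p = 0.046) and 0.66 (rho 0.47, adjusted permutation p = 0.025 for r and 0.16 for rho), or 0.42 and 0.30 without those tumors. Within conditions, the leukocyte r of Aim2 was 0.77 and 0.65 and its melanocyte r −0.64 and −0.34. The melanocyte r within conditions was 0.58 and 0.44 for Mavs and 0.46 and 0.57 for Tlr3.

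In the first experiment, 6 of the 9 genes passed an adjusted permutation p of 0.05 for r with T and NK cell markers, of which Zbp1 and Tmem173 had the highest r. The share of all genes that go with these markers at that level is not given. Most of these members also varied together, so the count is a description and not a trait particular to them. The T and NK cell markers (Cd3e, Cd3d, Cd8a, Nkg7, Gzmb and Prf1), all with counts in every condition, gave r = 0.79 (rho 0.74) with Tmem173 and 0.80 (rho 0.78) with Zbp1, with an adjusted permutation p of 0.00042, and 0.69 and 0.73 without the 2 farthest tumors. For Ifih1, Dhx58, Aim2 and Tlr3 r was 0.60, 0.58, 0.51 and 0.48 (adjusted permutation p = 0.0049, 0.0064, 0.025 and 0.038). Their rho was 0.56, 0.44, 0.47 and 0.37, with adjusted permutation p of 0.018, 0.082, 0.0497 and 0.14, and without the 2 farthest tumors r was 0.55, 0.39, 0.29 and 0.40. Tmem173 also went with leukocyte (r = 0.60, rho 0.51) and neutrophil markers (r = 0.56, rho 0.57), with adjusted permutation p of 0.0058 and 0.012. Leukocyte markers also went with Zbp1 (r = 0.66, rho 0.62), Dhx58 (r = 0.62, rho 0.50) and Ifih1 (r = 0.47, rho 0.38). Their adjusted permutation p was 0.0014, 0.0034 and 0.041 for r and 0.0052, 0.035 and 0.13 for rho. Within conditions their r was 0.62, 0.47 and 0.43, and that of Tmem173 was 0.47 with leukocyte and 0.42 with neutrophil markers. In the second experiment Zbp1 was at r = 0.64 with T and NK cell markers (rho 0.66, adjusted permutation p = 0.025), or 0.48 without the 2 farthest. Tmem173 was at −0.02 with them (rho 0.10, adjusted permutation p = 0.99) and followed macrophage markers (Adgre1, Csf1r, C1qa, C1qb, C1qc and Cd68) at r = 0.83 (rho 0.78, adjusted permutation p = 0.00094). Without the 2 farthest tumors that r was 0.76. Tmem173 went with leukocyte markers there too (r = 0.81, rho 0.78, adjusted permutation p = 0.0010), and Mavs against T and NK cell markers (r = −0.60, rho −0.62, adjusted permutation p = 0.039). Ifih1, Ddx58 and Zbp1 also went with leukocyte markers there, at r = 0.75, 0.63 and 0.58 (adjusted permutation p = 0.0061, 0.045 and 0.046). Macrophage markers went with Ifih1 and Ddx58 there (r = 0.73 and 0.64, adjusted permutation p = 0.0062 and 0.028). Within conditions of the second experiment, the leukocyte r was 0.83, 0.88, 0.72 and 0.72 for Tmem173, Ifih1, Ddx58 and Zbp1. The macrophage r within conditions was 0.82, 0.85 and 0.69 for Tmem173, Ifih1 and Ddx58. Aim2 went with macrophage markers in both experiments (r = 0.64 and 0.68, adjusted permutation p = 0.0022 and 0.017), or 0.53 and 0.35 without the 2 farthest tumors. Within conditions it was 0.52 and 0.74. With T and NK cell markers, r within conditions of the first experiment was 0.79 for Zbp1, 0.75 for Tmem173 and 0.56 for Ifih1. It was 0.54 for Dhx58, 0.44 for Aim2 and 0.54 for Tlr3. In the second experiment it was 0.41 for Zbp1, 0.145 for Tmem173 and −0.43 for Mavs.

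No member passed an adjusted p of 0.05 in any of the 20 tests of edgeR's quasi-likelihood method with Benjamini-Hochberg adjustment, 11 in the first experiment and 9 in the second. DESeq2 called Zbp1 in 2 tests of day 7, gave no adjusted p for any member in 1, and called 0 members in the other 17. Without the filter on low counts edgeR called Zbp1 in 8 tests and Aim2 in 1 of these, where it called 0.152% to 14.4% of all genes. Fold changes below therefore describe differences that did not hold after adjustment. A lack of overlap between groups of 3 also arises at times between groups of equal level. Its share over all genes is not given, so it is a description and no result about these genes. Over all genes the adjusted test with the filter called 0.0% in 17 of these tests and 0.188% to 1.66% in the other 3. Shares of all genes at an unadjusted p are those of edgeR with the filter, unless another tool or setting is named beside them.

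**Figure D5:**
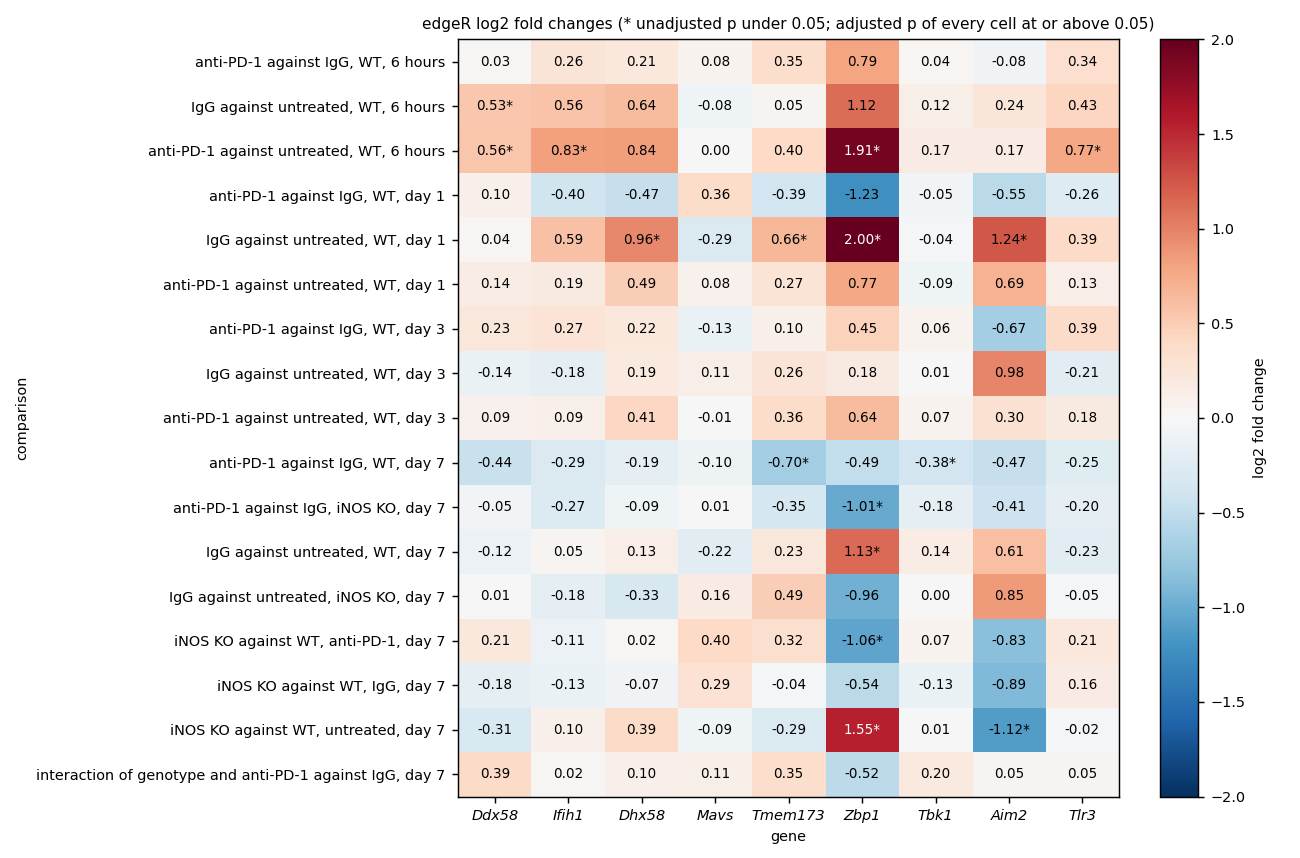
edgeR log2 fold changes of the 9 counted genes (columns) in 17 comparisons (rows), first-named group minus second, 3 tumors against 3; the interaction is the KO difference minus the WT difference, and asterisks mark an unadjusted p under 0.05. Zbp1 has the widest range, from −1.23 to 2.00, and all adjusted p-values were at or above 0.05.

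The comparison at 6 hours asks which genes differ early under PD-1 blockade. Between anti-PD-1 and IgG, 8 of 9 genes were higher with anti-PD-1 by fold change, 0 at an unadjusted p under 0.05 in edgeR and 0 in DESeq2, where 4.38% of all genes had one in edgeR. Their log2 fold changes ran from −0.08 to 0.79 with a median of 0.21, which fell to 0.02 without 1 of the 6 tumors and reached 0.64 without IgG tumor 1. All adjusted p-values were 1. Zbp1, at 28.1, 69.9 and 159 CPM against 17.7, 32.6 and 98.5, had the largest of these at 0.79 ± 0.75, and the groups overlapped.

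Against untreated tumors at 6 hours, 4 of 9 genes were higher with anti-PD-1 at an unadjusted p under 0.05, beside 3.3% of all genes. DESeq2 gave 5 members at that level, beside 766 of 26848 genes, and called 0. With the replicate number as a block the edgeR count was 0, beside 459 of 26848 genes. T and NK cell markers summed to 8.41 to 38.9 CPM with anti-PD-1 and 5.79 to 21.5 CPM untreated. In the same order, leukocyte markers summed to 307 to 528 and 210 to 560 CPM. Macrophage markers summed to 264 to 434 and 203 to 483 CPM, and the part of all these cells was not tested. Ddx58 was at 66.3, 80.6 and 113 CPM with anti-PD-1 and 56.7, 57.8 and 62.1 untreated, with a log2 fold change of 0.56 ± 0.25 and an unadjusted edgeR p of 0.037. All 3 treated tumors were above all 3 untreated ones. Zbp1 was at 28.1, 69.9 and 159 against 10.4, 15.8 and 42.1 CPM (1.91 ± 0.78, edgeR unadjusted p = 0.021, adjusted p = 1), Ifih1 at 56.1, 91.7 and 142 against 49.7, 51.5 and 62.2 (0.83 ± 0.35, edgeR unadjusted p = 0.025) and Tlr3 at 28.5, 47.2 and 71.5 against 27, 28.2 and 30.9 (0.77 ± 0.37, edgeR unadjusted p = 0.049). In each of these the treated tumor 5 was the highest and the groups overlapped. Tbk1 did not overlap between groups either, at 45, 47.7 and 50.0 against 39.8, 43.7 and 43.8 CPM, with a fold change of 0.17 ± 0.15 (edgeR unadjusted p = 0.3, adjusted p = 1). The adjusted p of all members was 1. None had an unadjusted p under 0.05 without anti-PD-1 tumor 5, or without untreated tumor 2 or tumor 4.

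IgG-treated tumors were set against the same untreated tumors at 6 hours. Ddx58 was at 49.4, 102 and 104 CPM with IgG and 56.7, 57.8 and 62.1 untreated, a log2 fold change of 0.53 ± 0.25 (edgeR unadjusted p = 0.046, adjusted p = 0.76). IgG tumor 2 was below all untreated tumors and the others were above them. This was the 1 member at an unadjusted p under 0.05, in edgeR and in DESeq2, beside 5.42% of all genes, and of the 6 tumors only IgG tumor 2 could be left out with Ddx58 still under that p. By fold change, 8 of the 9 genes were higher with IgG, with a median log2 fold change of 0.43 beside 0.10 over all genes. Both comparisons share their untreated tumors.

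At day 1 the IgG tumors held the highest values of several sensors. Against untreated tumors, Zbp1 was at 46.2, 65.2 and 333 CPM with IgG and 24.4, 32.6 and 53.8 untreated (2.00 ± 0.78, edgeR unadjusted p = 0.016, adjusted p = 0.86). The IgG group overlapped the untreated one and tumor 4 alone lay at over 5 times the next. Aim2 was at 8.76, 9.0 and 9.74 CPM with IgG and 3.24, 3.59 and 4.80 untreated (1.24 ± 0.52, edgeR unadjusted p = 0.024, adjusted p = 0.86), with no overlap. Dhx58 was at 18.7, 31.2 and 88.5 against 19.5, 21.4 and 30.3 CPM (0.96 ± 0.43, edgeR unadjusted p = 0.034) and Tmem173 at 24.8, 28.8 and 47.2 against 16.5, 22.4 and 24.9 CPM (0.66 ± 0.32, edgeR unadjusted p = 0.048), and in both genes the groups overlapped. Mavs went the other way without overlap, at 23.8, 23.8 and 26.1 against 26.7, 29.5 and 33.7 CPM (−0.29 ± 0.19, edgeR unadjusted p = 0.14). These 4 genes at an unadjusted p under 0.05 stood beside 5.43% of all genes. DESeq2 also gave 4, beside 1610 of 26848 genes, and edgeR with the replicate block 2, beside 1360.

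Sums of cell type markers in those IgG tumors are given beside the sensors. Leukocyte markers summed to 635 to 906 CPM with IgG, 291 to 540.3 in untreated and 361 to 939 in anti-PD-1 tumors of day 1, and T and NK cell markers to 18.5 to 98.8, 9.46 to 16.7 and 6.98 to 25 CPM. Skeletal muscle markers (Acta1, Ckm, Myh4 and Tnnt3) summed to 2.08 to 3814 CPM with IgG, with a median of 3.42, and 2.56 to 20.6 untreated. Over the first experiment muscle markers had r of −0.07, −0.17, −0.30 and −0.08 with Zbp1, Aim2, Dhx58 and Tmem173. The adjusted permutation p of these was 0.88, 0.61, 0.30 and 0.86, and rho was −0.15, −0.19, −0.45 and −0.16. The part of leukocytes, T and NK cells and muscle in the differences was not tested. Without IgG tumor 4 the fold change of Zbp1 was 0.64 and that of Dhx58 0.12, and only Aim2 kept an unadjusted p under 0.05. Without untreated tumor 3 only Zbp1 had one, and without untreated tumor 6 no member did.

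Between anti-PD-1 and IgG at day 1, Mavs was at 29.8, 30.3 and 34.9 CPM with anti-PD-1 and 23.8, 23.8 and 26.1 with IgG, with no overlap and a log2 fold change of 0.36 ± 0.19 (edgeR unadjusted p = 0.066, adjusted p = 1). The other genes overlapped, 7 of 9 were lower with anti-PD-1, and the median of −0.39 turned to 0.15 without IgG tumor 4. No member had an unadjusted p under 0.05 in edgeR or DESeq2, beside 3.64% of all genes. Against untreated tumors of day 1, anti-PD-1 gave fold changes between −0.09 and 0.77, with 0 members at an unadjusted p under 0.05 in both tools beside 2.64% of all genes.

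Day 3 gave no member past an unadjusted p of 0.05. Anti-PD-1 against IgG gave log2 fold changes between −0.67 for Aim2 and 0.45 for Zbp1, with 0 members at an unadjusted p under 0.05 in edgeR and DESeq2 and 2.14% of all genes in edgeR. IgG against untreated gave −0.21 to 0.98 (2.64% of all genes) and anti-PD-1 against untreated −0.01 to 0.64 (2.63% of all genes), again with 0 members in both tools. For Zbp1, values with anti-PD-1 were at 25.4, 78.6 and 118 CPM, with IgG at 28.8, 31.8 and 101 and untreated at 33.1, 39.8 and 69.6. The ranges of the 3 groups overlapped, and no tumor with anti-PD-1 or IgG lay within the untreated range itself. Among untreated tumors at 0 hours, 6 hours, day 1 and day 3, 0 members had an unadjusted p under 0.05 in edgeR and DESeq2 (5.4% of all genes), and the smallest was 0.19. Over all 10 conditions of the first experiment the smallest in edgeR was 0.077, with 0 members under 0.05 beside 5.7% of all genes. In DESeq2 1 member was under 0.05, beside 2299 of 26848 genes.

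At day 7 the median log2 fold change over all genes was itself far from 0 wherever the libraries with high receptor counts took part, and members are given beside it. Between anti-PD-1 and IgG in WT mice, all 9 genes were lower with anti-PD-1, by a median of −0.38, while the median of all genes was 0.68. Tbk1 was at 32.5, 38.9 and 42.5 CPM with anti-PD-1 and 45.5, 46.8 and 56.1 with IgG, with no overlap (−0.38 ± 0.15, edgeR unadjusted p = 0.018, adjusted p = 0.31). Tmem173 was at 9.44, 12.2 and 19.9 against 17.9, 19.6 and 30.5 CPM (−0.70 ± 0.29, edgeR unadjusted p = 0.027, adjusted p = 0.31), and the groups overlapped through anti-PD-1 tumor 2. These 2 members at an unadjusted p under 0.05 stood beside 16.3% of all genes. DESeq2 also gave 2, with no adjusted p for any member.

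Values within the WT anti-PD-1 group were far apart. Tumor 2, at 19.9 CPM of Tmem173, 76.6 of Ddx58 and 63.9 of Ifih1, lay at or above most IgG tumors, whereas tumor 3 had 9.44, 28.8 and 29.8 CPM and tumor 4 12.2, 48.8 and 42.4. Without tumor 2, 7 members had an unadjusted p under 0.05 (33.3% of all genes) and 2, Ddx58 and Tmem173, were called (5.96% of all genes), all lower. Without tumor 3, 0 members had such a p (4.28% of all genes) and the median was −0.10. Macrophage markers summed to 110.1 to 553 CPM with anti-PD-1 and 287 to 1129 CPM with IgG, and leukocyte markers to 124 to 389 and 274 to 689.8 CPM, and their part was not tested. With the 3 libraries of high receptor counts left out together, a choice made after the data were seen, the median of the members was 0.18 and 0 had an unadjusted p under 0.05. That leaves 1 anti-PD-1 tumor in WT mice, whose spread is taken from the other groups.

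In iNOS KO mice, where no library of these 2 groups stood apart, Zbp1 was at 8.77, 12.1 and 14.1 CPM with anti-PD-1 and 14.8, 25.6 and 30.1 with IgG. All anti-PD-1 tumors were below all IgG tumors (−1.01 ± 0.48, edgeR unadjusted p = 0.048, adjusted p = 1). It was the 1 member at an unadjusted p under 0.05, beside 1.94% of all genes, and DESeq2 gave 0. Its p was no longer under 0.05 without anti-PD-1 tumor 1 or 2 or IgG tumor 1 or 3. T and NK cell markers summed to 1.65 to 3.79 CPM in these anti-PD-1 and 4.50 to 10.3 CPM in these IgG tumors. In the same order, leukocyte markers summed to 129 to 224 and 221 to 305 CPM. Macrophage markers summed to 85.1 to 358 and 224 to 432 CPM, and the part of all these cells was not tested. By fold change, 8 of the 9 genes were lower with anti-PD-1, by a median of −0.20 beside 0 over all genes.

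Between IgG and untreated tumors of WT mice, Zbp1 was at 20.7, 36.1 and 45.6 CPM with IgG and 9.42, 14.8 and 22.5 untreated (1.13 ± 0.48, edgeR unadjusted p = 0.029, adjusted p = 0.57), and only the lowest IgG tumor lay within the untreated range. It was the 1 member at an unadjusted p under 0.05, in edgeR and in DESeq2, beside 7.83% of all genes, but not without untreated tumor 1 or IgG tumor 3. T and NK cell markers summed to 9.83 to 19.1 CPM in these IgG and 1.37 to 5.27 CPM in these untreated tumors. In the same order, leukocyte markers summed to 274 to 689.8 and 188 to 307 CPM. Macrophage markers summed to 287 to 1129 and 156 to 460 CPM, and the part of all these cells was not tested. In iNOS KO mice Zbp1 leaned the other way, at 14.8, 25.6 and 30.1 CPM with IgG and 19.5, 38.6 and 78.8 untreated (−0.96 ± 0.48, edgeR unadjusted p = 0.058), with overlap. Whether these 2 effects differ was not tested. Dhx58 was lower with IgG in iNOS KO mice without overlap, at 17.8, 19.8 and 22.2 against 22.8, 24.6 and 27.6 CPM (−0.33 ± 0.20, edgeR unadjusted p = 0.12, adjusted p = 0.34). No member there had an unadjusted p under 0.05 in edgeR, beside 15.6% of all genes, and 0.188% of all genes were called. In DESeq2 1 member had such a p, beside 4456 of 30837 genes.

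Between iNOS KO and WT hosts, untreated tumors were compared first. Zbp1 was at 19.5, 38.6 and 78.8 CPM in iNOS KO and 9.42, 14.8 and 22.5 in WT tumors (1.55 ± 0.48, edgeR unadjusted p = 0.0044, adjusted p = 0.2), with 2 of the 3 KO tumors above all WT tumors. By DESeq2 the adjusted p was 0.0498, with 3.11% of all genes called. The fold change was 0.87 without untreated KO tumor 4, which had the highest value (edgeR adjusted p = 0.27). Without untreated KO tumor 2 the edgeR adjusted p was 0.021 (0.652% of all genes called), and without the filter on low counts Zbp1 was called as well, so that the call depended on the tool, the filter and single tumors. Aim2 was at 0.949, 1.67 and 2.97 against 3.27, 4.00 and 4.99 CPM, lower in KO without overlap (−1.12 ± 0.53, edgeR unadjusted p = 0.048, adjusted p = 0.3). These 2 members at an unadjusted p under 0.05, in edgeR and in DESeq2, stood beside 16.5% of all genes, of which 0.587% were called.

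Ddx58 was lower in untreated KO tumors, at 51.5, 61.4 and 71.0 against 71.3, 74.4 and 81.8 CPM (−0.31 ± 0.23, edgeR unadjusted p = 0.2), and Dhx58 higher, at 22.8, 24.6 and 27.6 against 16, 19.3 and 22 CPM (0.39 ± 0.20, edgeR unadjusted p = 0.07), each without overlap. T and NK cell markers summed to 5.18 to 13.4 CPM in untreated KO and 1.37 to 5.27 CPM in untreated WT tumors, and leukocyte markers to 170.2 to 223 and 188 to 307 CPM, and their part was not tested. The median over all genes was 0.49 in this comparison and −0.02 over the members. Without the libraries of high receptor counts Zbp1 was at 1.66 and Aim2 at −1.05.

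With anti-PD-1 Zbp1 was lower in iNOS KO than in WT tumors by fold change. It was at 8.77, 12.1 and 14.1 CPM in iNOS KO and 12.9, 14.6 and 44.8 in WT tumors (−1.06 ± 0.48, edgeR unadjusted p = 0.04, adjusted p = 0.15). WT tumor 2, at 44.8 CPM, was above the others, and without it the fold change was −0.18. With the libraries of high receptor counts left out it was −1.90, but that setting leaves tumor 2 as the only WT tumor with anti-PD-1. T and NK cell markers summed to 1.65 to 3.79 CPM in iNOS KO and 8.32 to 19.5 CPM in WT tumors. In the same order, leukocyte markers summed to 129 to 224 and 124 to 389 CPM. Macrophage markers summed to 85.1 to 358 and 110.1 to 553 CPM, and the part of all these cells was not tested. Mavs was higher in KO without overlap, at 30.8, 33.5 and 33.5 against 17.5, 26.3 and 30.1 CPM (0.40 ± 0.20, edgeR unadjusted p = 0.061, adjusted p = 0.16), but the median of all genes was −0.91 here and the fold change of Mavs was −0.18 with the receptor counts as a covariate. Zbp1 was the 1 member at an unadjusted p under 0.05 in edgeR and in DESeq2, beside 32.3% of all genes. Without WT tumor 2 edgeR called Ddx58, together with 13% of all genes.

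With IgG, no member had an unadjusted p under 0.05 between genotypes in edgeR or DESeq2, beside 6.26% of all genes. Mavs was at 30.4, 32.4 and 34.4 CPM in iNOS KO and 23.1, 27.8 and 28.4 in WT tumors, all KO tumors above all WT tumors (0.29 ± 0.20, edgeR unadjusted p = 0.16, adjusted p = 0.65). Aim2 had the largest difference, −0.89 ± 0.53, with 2.94, 3.25 and 3.91 CPM in KO and 3.5, 5.41 and 9.80 in WT tumors. The interaction, which asks whether anti-PD-1 against IgG differed between hosts, gave 0 members at an unadjusted p under 0.05 in edgeR and DESeq2, beside 7.42% of all genes. Its values ran from −0.52 ± 0.67 for Zbp1 to 0.39 ± 0.33 for Ddx58. Over the 6 conditions of day 7 together, Zbp1 alone had an unadjusted p under 0.05 in edgeR (0.0068, adjusted p = 0.10), beside 28.2% of all genes with such a p and 1.66% called. DESeq2 called Zbp1 here, together with 12.7% of all genes. So did edgeR when any 1 of 8 of the 18 tumors was left out, with 2.87% to 18.2% of all genes called.

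Other genes of the pathway gave few calls. Of the 8 tested of 10 genes that sensing induces, the interferon-induced gene Ifit3 was higher in untreated iNOS KO than in untreated WT tumors (log2 fold change 1.26 ± 0.27, edgeR adjusted p = 0.038). In that comparison 6 of the 8 were higher at an unadjusted p under 0.05 (16.5% of all genes had one), with a median of 0.67 beside 0.49 over all genes. Over the 6 conditions of day 7, Usp18, Ifit1 and Ifit3 were called (edgeR adjusted p = 0.026, 0.027 and 0.034), beside 1.66% of all genes. In the same list, 5 of 8 were higher at an unadjusted p under 0.05 with anti-PD-1 than untreated at 6 hours (median 0.98 beside −0.02 over all genes, and 3.3% of all genes with such a p), 0 with anti-PD-1 than with IgG (median 0.25 beside −0.07, and 4.38%), and 6 were lower with IgG than untreated in iNOS KO mice (median −0.72 beside −0.45, and 15.6%). Ifnb1 and Ifna4, the interferon genes themselves, had at most 7 and 9 counts in any library and were not tested.

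No gene was called by edgeR in any of the 20 tests among the 12 other nucleic acid sensors, the 16 adaptors, kinases and transcription factors downstream, the 9 nucleases and editing enzymes that limit the ligands, or the 9 inflammasome and necroptosis effectors. At an unadjusted p under 0.05, in WT tumors of day 7 between anti-PD-1 and IgG, 4 of the 12 sensors, 5 of the 16 downstream genes and 3 of the 9 nucleases were lower, beside 16.3% of all genes. Of the 9 effectors and of the 8 tested genes that sensing induces, 0 had such a p. The smallest p-values among the lower genes were those of Tlr8, an endosomal RNA receptor (−1.63 ± 0.58), Ticam1, the adaptor of TLR3 (−0.59 ± 0.26), and Samhd1 (−0.90 ± 0.34), all with an edgeR adjusted p of 0.31. For IgG against untreated at day 1, 2 genes of each of these 4 lists were higher, beside 5.43% of all genes, led by Tlr9, a DNA receptor (1.69 ± 0.66), Myd88, its adaptor (0.70 ± 0.26), Samhd1 (1.22 ± 0.35) and Casp1, the inflammasome protease (1.45 ± 0.48), all with an edgeR adjusted p of 0.86. Between anti-PD-1 and IgG at 6 hours no gene of the 5 lists had one.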

How the data were processed

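The authors deposited whole-number counts per gene and library, which are not normalized. According to the submitters' notes, reads were trimmed with cutadapt 1.8.1, aligned to mm10 with STAR 2.7.7a and counted with RSEM 1.3.0, although the name of the table points to featureCounts, and which program made it was not settled. Groups were taken from sample titles, since other label fields conflict with them, and day 7 from the study. Genotype is among these fields, and it lists the iNOS KO tumors as WT too. Comparisons between hosts therefore rest on the titles. Counts of each experiment were filtered (filterByExpr, minimum count 10, leaving 26848 and 30837 genes), scaled by TMM and tested with edgeR 4.0.16's quasi-likelihood test in R 4.3.3, with Benjamini-Hochberg adjustment over all genes tested and a threshold of 0.05. CPM used TMM effective library sizes. A floor of 3 counts equals 0.0688 to 0.197 CPM and covers counting error only. Correlations used 100000 permutations (scipy 1.17.1). Same-numbered tumors did not deviate together (median correlation −0.08 over 65 pairs and −0.02 over 36), and no libraries were duplicates. The p-values measure the spread between tumors, which the study describes as taken from separate animals.

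All 10 genes are named. Fold changes are printed where an unadjusted p was under 0.05 or the groups of 3 did not overlap, with the extremes given as ranges. Members and lists were chosen with earlier results of these data known. DESeq2 1.42.0, other size factors, no filter, a replicate block, receptor counts as a covariate, only the groups compared and leaving out tumors were alternatives, and scripts were tested on simulated data.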

Additional observations from a re-analysis of the deposited data

How the results depend on the processing

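Of 290 counts of members called under alternative settings, 269 kept the count of 0 given in the report. Of 215 medians of the members, 208 moved by less than the spread between replicates. Of 297 fold changes of single genes, 287 kept their direction and their side of the threshold. Without the filter on low counts, edgeR called 1 member for IgG against untreated at day 1, over the 10 conditions of the first experiment, for anti-PD-1 against IgG in iNOS KO mice, for IgG against untreated in both hosts at day 7 and for iNOS KO against WT with anti-PD-1 and untreated, and 2 over the 6 conditions of day 7. The genes called were Zbp1 in each and also Aim2 over the 6 conditions. Under this setting edgeR called, in the same order, 0.418%, 2.85%, 0.152%, 1.3% (WT), 2.66% (iNOS KO), 5.52%, 2.63% and 14.4% of all genes, and the cause was not tested. DESeq2 called 1 for iNOS KO against WT untreated (3.11% of all genes) and 1 over the 6 conditions (12.7%), and gave no count for anti-PD-1 against IgG in WT mice of day 7, where the adjusted p was missing for all 9 members.

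Leaving out 1 tumor at a time gave 0 to 2 members called for anti-PD-1 against IgG in WT mice of day 7, 0 to 1 for iNOS KO against WT with anti-PD-1, 0 to 1 untreated, and 0 to 2 over the 6 conditions. The median of the members ran from 0.022 to 0.64 for anti-PD-1 against IgG at 6 hours, from −0.59 to 0.15 at day 1, and from 0.12 to 0.82 for IgG against untreated at day 1. With the receptor counts as a covariate the median was −0.40 for IgG against untreated in iNOS KO mice and −0.46 for iNOS KO against WT with anti-PD-1, and Mavs in the latter (−0.18) and Ddx58 for iNOS KO against WT untreated (0.10) changed sign. With the libraries of high receptor counts left out, a setting chosen after seeing the data, the median was 0.18 for anti-PD-1 against IgG in WT mice. It was −0.33 for iNOS KO against WT with anti-PD-1. Both values rest on tumor 2 as the only WT tumor with anti-PD-1. With the replicate block 0 members were called and the count at an unadjusted p under 0.05 fell from 4 to 0 for anti-PD-1 against untreated at 6 hours, from 4 to 2 for IgG against untreated at day 1 and from 2 to 1 for iNOS KO against WT untreated, with medians of 0.50 for anti-PD-1 against untreated at 6 hours and 0.61 for IgG against untreated at day 1. Of all genes under the block, 459 and 1360 of 26848 and 3871 of 30837 had such a p, in the same order. With 3 tumors a group, small differences in Zbp1 and Aim2 were not detectable.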
